A study of Mus musculus with 18 samples.

Results

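Xdh encodes xanthine dehydrogenase, the enzyme that makes uric acid, and it was examined together with 7 other genes of purine breakdown and salvage (Uox, Gda, Ada, Hprt, Aprt, Adk and Impdh2) in livers of mice with and without FXR. FXR, encoded by Nr1h4, is the nuclear receptor that bile acids activate, and GW4064 is a synthetic agonist of it. The genes were the 8 named for this pathway, and their probe sets were found by gene symbol in the annotation of the platform: 7 of the 8 had a probe set that names them alone, 11 of 22690 probe sets in all, and Impdh2, which encodes an enzyme of guanine nucleotide synthesis, had none. Xdh was selected on its measured levels, having been seen to be higher with GW4064 in WT livers and higher in both knockouts, and the other 7 genes because they belong to its pathway. Its values are therefore given as a description with no test, and tests were made for the 6 other genes that were measured.

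RNA from the livers of 18 male mice was hybridised, with 3 arrays in each of 6 groups: WT, Liver Fxr KO and Whole body Fxr KO (WB KO) mice, each with vehicle or GW4064. All mice had the C57BL/6J background and were 10 to 16 weeks old, and all were dosed by oral gavage. According to the labels, GW4064 at 150 mg per kg or vehicle was given 2 times, in the evening and the next morning, and livers were taken 2 hours after the last dose. The methods of the study describe WT mice only, with a lower dose given more often and an overnight fast, and the values do not settle which schedule was used. The liver knockout mice are named AFXR Cre+, with the promoter that drives Cre not given in the sources used here, and the WT mice are not said to carry Cre or a floxed allele. Nothing says whether mice shared a litter or a cage, so p-values measure the spread between these arrays.

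Purines are made anew, salvaged from free bases and nucleosides, or broken down to uric acid. In the breakdown, Ada turns adenosine into inosine, Gda turns guanine into xanthine, Xdh oxidises hypoxanthine and xanthine to uric acid, and in mice Uox oxidises uric acid further in the peroxisomes of hepatocytes. Hprt and Aprt return hypoxanthine, guanine and adenine to nucleotides, and Adk phosphorylates adenosine to AMP. The liver is the main site of uric acid formation, and Xdh protein can be converted to xanthine oxidase, a source of reactive oxygen species.

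The genotypes and the treatment were checked on Nr1h4 and on Nr0b2, the classic FXR target that encodes SHP. Nr1h4 had a mean log2 level of 9.08 in WT livers with vehicle and 9.03 with GW4064, and lay between 3.98 and 4.69 in the 12 knockout arrays. Nr0b2 rose by 1.85 on the log2 scale with GW4064 in WT livers (SE 0.342, limma adjusted p = 0.0433), from levels of 7.85, 7.86 and 8.21 to 10.84, 9.59 and 9.04. In the liver knockout it stood at 7.56, 8.01 and 8.18 with vehicle and 8.78, 9.04 and 8.66 with GW4064, all above. The difference there was 0.91 (limma unadjusted p = 0.0171, adjusted p = 0.894). In the WB KO it stood at 8.77, 8.16 and 8.16 with vehicle and 8.04, 7.77 and 7.04 with GW4064, all below. That difference was -0.75 (unadjusted p = 0.0442, adjusted p = 0.794). With GW4064, 0 of all genes passed the adjusted test in either knockout. Alb, the hepatocyte marker, lay between 14.78 and 14.97 on all arrays. WT GW4064 replicate 1 and WB KO GW4064 replicate 3 stood apart from the rest, with interquartile ranges of relative expression of 0.259 and 0.231 against 0.127 to 0.197 on the other arrays. WT GW4064 replicate 3 and WB KO GW4064 replicates 1 and 2 correlated less with their own group (mean r of 0.99134, 0.99136 and 0.99134) than with all arrays (0.99251, 0.99155 and 0.99342).

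Xdh was lowest in WT livers with vehicle and higher in each of the other 5 groups. Its log2 levels were 9.25, 9.39 and 9.13 in WT livers with vehicle and 9.90, 9.75 and 9.59 with GW4064. Liver knockout livers had 9.67, 9.65 and 9.53 with vehicle and 9.56, 9.72 and 9.68 with GW4064. WB KO livers had 9.65, 9.66 and 9.68 with vehicle and 9.53, 9.48 and 9.56 with GW4064. The highest WT vehicle array, at 9.39, lay below the lowest of the other 15 arrays, at 9.48.

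The group means of Xdh ran from 9.75 in WT livers with GW4064 through 9.66 in the WB KO with vehicle, 9.65 in the liver knockout with GW4064, 9.62 in the liver knockout with vehicle and 9.53 in the WB KO with GW4064 to 9.26 in WT livers with vehicle. Between neighbours in that order the arrays overlapped, except for the last pair. The gaps between neighbours, in that order, were 0.08, 0.01, 0.04, 0.09 and 0.27. As differences, Xdh was 0.49 higher with GW4064 in WT livers (SE 0.0862), which is 1.41-fold. It was 0.36 higher in the liver knockout than in WT with vehicle, which is 1.28-fold, and 0.41 higher in the WB KO, which is 1.33-fold. These 3 comparisons share the 3 WT vehicle arrays, so they are not independent of each other.

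With GW4064 against vehicle, Xdh differed by 0.04 in the liver knockout, with overlapping arrays (95% interval -0.14 to 0.22). For the WB KO it was -0.14 (95% interval -0.32 to 0.04), and all 3 GW4064 arrays lay below all 3 vehicle arrays. Set against the effect in WT livers, the effect of GW4064 was 0.45 lower in the liver knockout and 0.63 lower in the WB KO (differences of -0.45 and -0.63, SE 0.122 each). The sign for the liver knockout rested on 1 array: without liver knockout vehicle replicate 3 the difference was -0.0034. The WT difference lay between 0.41 and 0.57 when each array of its groups was left out in turn, and was 0.41 without the 2 arrays that stood apart.

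**Figure D1:**
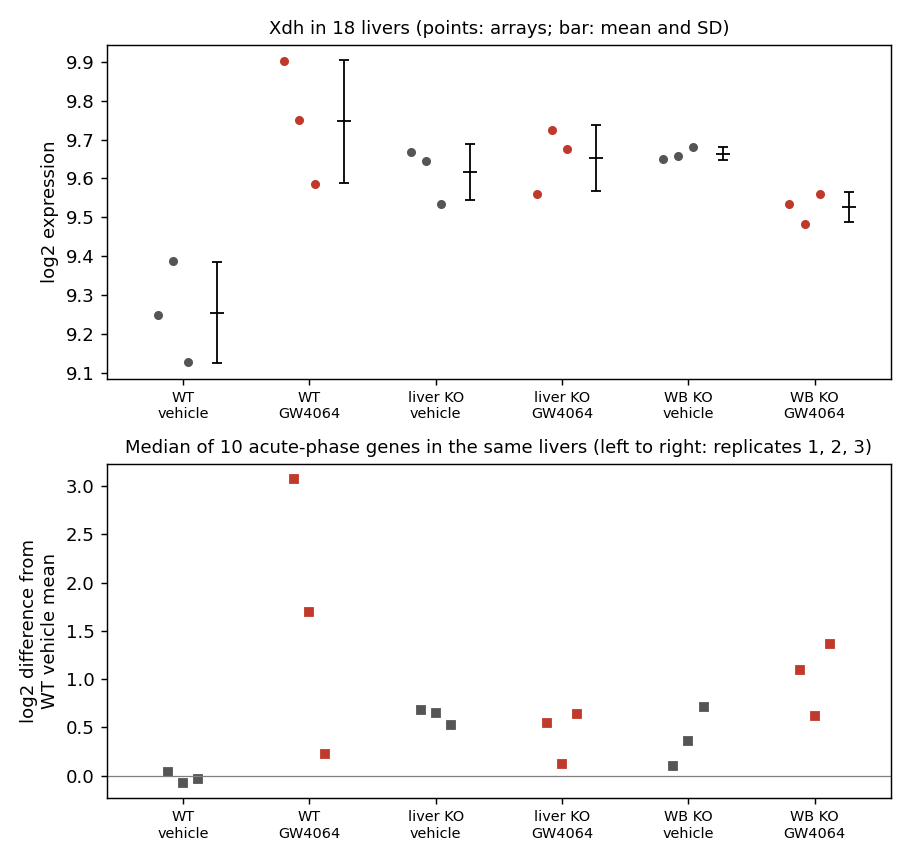
Log2 expression of Xdh (upper panel, points are arrays, bars are the mean and SD of 3 arrays) and the median log2 difference of 10 acute-phase genes from their WT vehicle mean in the same livers (lower panel), for the 6 groups with replicates 1, 2 and 3 from left to right. The 3 WT vehicle arrays lie at or below 9.39 and the other 15 at or above 9.48, and the acute-phase median of the WT GW4064 arrays spans 0.23 to 3.07.

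The acute-phase genes, a set of 10 liver genes of the inflammatory response that were all measured, differed between the same arrays. In WT livers with GW4064 their median difference from the WT vehicle mean was 3.07, 1.69 and 0.23 in replicates 1, 2 and 3, where Xdh stood at 9.90, 9.75 and 9.59. The replicate with the highest acute-phase median also had the highest Xdh level, and the one with the lowest had the lowest. The 2 orders also matched in each knockout with vehicle and in the WB KO with GW4064. They did not match in WT livers with vehicle or in the liver knockout with GW4064. In the latter the medians were 0.54, 0.12 and 0.64, where Xdh stood at 9.56, 9.72 and 9.68. WT vehicle arrays lay between -0.07 and 0.04. Medians were 0.53 to 0.68 in the liver knockout with vehicle and 0.09 to 0.71 in the WB KO with vehicle. With GW4064 the WB KO had 0.62 to 1.36, while Xdh was lower there than with vehicle. All 10 genes were higher with GW4064 in WT livers and 1 of them passed the adjusted test, where 0.194% of all genes did. Lcn2, one of the 10, lay between 5.70 and 6.43 in WT livers with vehicle and at 13.65, 12.91 and 8.22 with GW4064. The part of the acute-phase genes in the levels of Xdh was not tested.

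Markers of other liver cells also differed between groups. The median of each list was taken as a log2 difference from the WT vehicle mean. For 10 endothelial markers the median was -0.81 to -0.14 in WT livers with GW4064, against -0.05 to 0.01 with vehicle. All 10 were lower with GW4064 in WT livers, 9 in the WB KO and 7 in the liver knockout, and none passed the adjusted test. The endothelial median was -0.03 to 0.03 in the liver knockout with vehicle and -0.09 to 0.11 with GW4064. In the WB KO it was 0.22 to 0.30 with vehicle and -0.34 to 0.11 with GW4064. For 9 Kupffer cell and macrophage markers it was -0.48 to 0.59 in WT livers with GW4064, against -0.10 to 0.15 with vehicle. In the liver knockout it was 0.21 to 0.37 with vehicle and 0.28 to 0.37 with GW4064. In the WB KO it was 0.05 to 0.61 with vehicle and 0.14 to 0.88 with GW4064. For 8 stellate cell and fibroblast markers it was -0.68 to -0.20 in WT livers with GW4064, against -0.12 to 0.21 with vehicle, 0.21 to 0.48 in the WB KO with vehicle and 0.44 to 0.77 in the WB KO with GW4064. In the WB KO against WT with vehicle, 1 of these 8 passed the adjusted test, where 1.14% of all genes did. For 7 hepatocyte markers it stayed between -0.15 and 0.04 on all arrays. Pecam1, a defining endothelial marker, lay between 4.55 and 5.38, and Clec4f, a defining Kupffer cell marker, between 7.65 and 9.05. In whole liver, fewer cells of a type and less RNA per cell cannot be told apart, and the part of cell composition in the purine genes was not tested.

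Of the 6 other purine genes, 0 passed the limma test at an adjusted p of 0.05 in any of the 3 GW4064 comparisons. With GW4064 in WT livers, where 0.194% of all 12394 genes passed, 2 of the 6 had an unadjusted p under 0.05 (Uox and Gda), against 12.6% of all genes. For the liver knockout, where 0% of all genes passed, 1 of the 6 did (Aprt), against 5.02%. For the WB KO, where 0% passed, 2 did (Gda and Ada), against 6.25%. By the methods' t-test 0, 1 and 0 of the 6 had an unadjusted p below 0.05, beside 838, 788 and 521 of 12394 genes, and after adjustment 0 of the 6 and 0 of all genes passed in each genotype. The methods pair that test with a fold cut-off of 1.5, and with it 0 of the 6 were left in each. The median difference of the 6 genes was -0.01 in WT livers, 0.04 in the liver knockout and -0.06 in the WB KO, beside a median of -0.00, -0.00 and -0.01 over all genes. In WT livers the 6 genes did not share a direction, with 3 higher and 3 lower. Xdh was 0.49 higher there, but it was chosen for being higher, so its contrast with the 6 genes carries no weight.

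**Figure D2:**
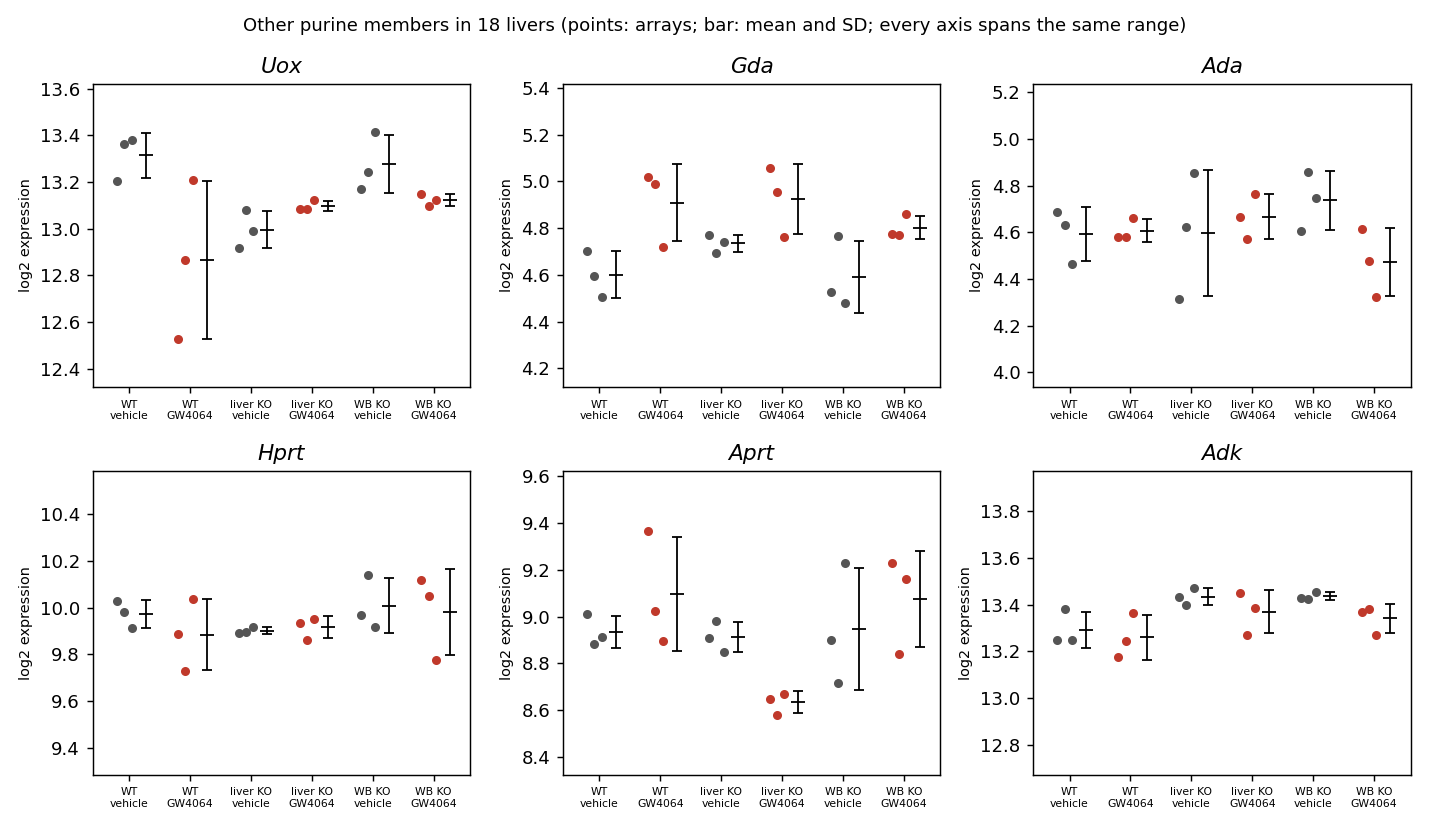
Log2 expression of Uox, Gda, Ada, Hprt, Aprt and Adk in the 6 groups (points are arrays, bars are the mean and SD of 3 arrays, and every axis spans 1.3 log2 units). Uox in WT livers with GW4064 ranges from 12.53 to 13.21, and the 18 Hprt arrays from 9.73 to 10.14.

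Uox, the enzyme directly after Xdh in the pathway, showed the widest spread of the members in WT livers with GW4064. Its log2 levels were 13.20, 13.36 and 13.38 with vehicle and 12.53, 12.87 and 13.21 with GW4064. The arrays overlapped only through GW4064 replicate 3, which reached the lowest vehicle array. The difference was -0.45 (SE 0.121, limma unadjusted p = 0.0019, adjusted p = 0.148). Without WT GW4064 replicate 3 it was -0.62 and passed the test (adjusted p = 0.0041). In that fit 268 of all 12394 genes passed this comparison, against 24 with all arrays. Without WT GW4064 replicate 1, Uox was -0.28 and did not pass. The acute-phase medians given above had the opposite order on the 3 WT GW4064 arrays, with the highest median where Uox was lowest. No other group had the fully opposite order. In the WB KO with vehicle the orders matched, with medians of 0.09, 0.36 and 0.71 and Uox at 13.17, 13.24 and 13.41. The part of the acute-phase genes in the levels of Uox was not tested.

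In the knockouts, Uox stood at 12.92, 13.08 and 12.99 in the liver knockout with vehicle and 13.08, 13.09 and 13.12 with GW4064. These GW4064 arrays lay just above all vehicle arrays, with a difference of 0.10 (adjusted p = 0.9996). Its WB KO levels were 13.17, 13.24 and 13.41 with vehicle and 13.15, 13.10 and 13.12 with GW4064, all below vehicle, with a difference of -0.15 (adjusted p = 0.892). Against WT with vehicle, Uox in the liver knockout was lower on all 3 arrays, with a difference of -0.32 that did not pass (unadjusted p = 0.0180, adjusted p = 0.272), and in the WB KO the difference was -0.04 (95% interval -0.30 to 0.22). The effect of GW4064 in the liver knockout minus that in WT was 0.55 (SE 0.172, unadjusted p = 0.0054, adjusted p = 0.506), and 0.72 without WT GW4064 replicate 3 (adjusted p = 0.0315). With single arrays left out, 0 to 50 of all genes passed this comparison.

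The 250 bases before the start of Uox, the member that lay furthest from Xdh in direction with GW4064 in WT livers, and of Gda, which lay in the same direction as Xdh, are shown here so that the pair can be compared. They come from RefSeq on GRCm38.p6, at chr3:146596899-146597148 on the plus strand for Uox and chr19:21472662-21472911 on the minus strand for Gda, each read toward the gene. A window was given for all members but Xdh.
Uox: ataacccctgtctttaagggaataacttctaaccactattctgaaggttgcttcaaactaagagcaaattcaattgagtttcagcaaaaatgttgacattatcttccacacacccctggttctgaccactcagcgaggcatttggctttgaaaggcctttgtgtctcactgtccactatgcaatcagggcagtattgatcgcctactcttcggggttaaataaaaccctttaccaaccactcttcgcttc
Gda: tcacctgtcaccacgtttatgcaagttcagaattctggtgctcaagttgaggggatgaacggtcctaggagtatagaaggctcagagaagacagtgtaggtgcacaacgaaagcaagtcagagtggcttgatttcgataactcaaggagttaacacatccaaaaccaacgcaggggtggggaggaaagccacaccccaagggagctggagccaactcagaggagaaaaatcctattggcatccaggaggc
On either strand, neither window held the nuclear receptor core AGGTCA (in 14.0% of 32851 windows of this length), the E-box CACGTG (6.02%), the STAT pattern TTCNNNGAA (7.02%), the TATA box TATAAA (12.4%), the NF-kB pattern (1.21%) or the inverted repeat of that core which FXR can bind (0.00609%). No match says only that these letters are not in these windows.

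Gda, which makes xanthine for Xdh, had a dim probe set, at 4.48 to 5.06 over the 18 arrays, near the 3.98 to 4.69 at which Nr1h4 was read in the knockouts, and small differences of such a probe set are uncertain. It had log2 levels of 4.70, 4.59 and 4.50 in WT livers with vehicle and 5.02, 4.99 and 4.72 with GW4064. All 3 GW4064 arrays lay above all vehicle arrays, and the difference was 0.31 (SE 0.0995, unadjusted p = 0.0067, limma adjusted p = 0.219). Its liver knockout levels were 4.77, 4.69 and 4.74 with vehicle and 5.06, 4.95 and 4.76 with GW4064, a difference of 0.19 with overlapping arrays (unadjusted p = 0.0744). WB KO arrays gave 4.53, 4.76 and 4.48 with vehicle and 4.78, 4.77 and 4.86 with GW4064, a difference of 0.21 with all arrays above (unadjusted p = 0.0484, adjusted p = 0.798). The mean of Gda was higher with GW4064 in each of the 3 genotypes, none of them past the adjusted test, and the differences between genotypes in this effect were -0.12 and -0.10 (95% intervals -0.42 to 0.18 and -0.39 to 0.20). With vehicle it differed from WT by 0.13 in the liver knockout and by -0.01 in the WB KO.

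Ada, which deaminates adenosine, also had a dim probe set, with log2 levels of 4.69, 4.63 and 4.46 in WT livers with vehicle and 4.58, 4.58 and 4.66 with GW4064. The difference of 0.01 (95% interval -0.24 to 0.26) was smaller than the spread within either group. Liver knockout arrays gave 4.32, 4.62 and 4.85 with vehicle and 4.66, 4.57 and 4.76 with GW4064. Levels in the WB KO were 4.61, 4.86 and 4.75 with vehicle and 4.61, 4.48 and 4.32 with GW4064, a difference of -0.27 with overlapping arrays (unadjusted p = 0.0377, limma adjusted p = 0.785). Ada was the measured member whose window before the start held a searched pattern, and for that reason the window is shown, from chr2:163750240-163750489 on the minus strand of GRCm38.p6. Capitals mark the matches to the NF-kB pattern, from -137 to -128, and to the STAT pattern, from -90 to -82.
Ada: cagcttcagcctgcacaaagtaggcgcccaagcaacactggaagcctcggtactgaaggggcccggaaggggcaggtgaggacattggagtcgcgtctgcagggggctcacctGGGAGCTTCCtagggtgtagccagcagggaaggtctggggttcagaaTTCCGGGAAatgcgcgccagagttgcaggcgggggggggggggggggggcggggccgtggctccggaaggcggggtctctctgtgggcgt
A match of letters is a description and not a site. Impdh2, which was not measured, had an E-box at -110 to -105.

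Hprt, the salvage enzyme for hypoxanthine and guanine, had the highest p of the 6 genes over the groups (limma adjusted p = 0.850). Its log2 levels were 10.03, 9.98 and 9.91 in WT livers with vehicle and 9.89, 9.73 and 10.04 with GW4064, a difference of -0.09 (95% interval -0.29 to 0.11). Over the 12 knockout arrays it ranged from 9.77 to 10.14. Its differences with GW4064 in the knockouts and between the knockouts and WT lay between -0.07 and 0.04, and each 95% interval reached no further than -0.27 to 0.24.

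Aprt, the salvage enzyme for adenine, had differences with GW4064 of opposite sign in WT and liver knockout livers. Its log2 levels were 9.01, 8.88 and 8.91 in WT with vehicle and 9.37, 9.03 and 8.90 with GW4064, a difference of 0.16 with overlapping arrays (limma adjusted p = 0.678). In the liver knockout it stood at 8.91, 8.98 and 8.85 with vehicle and 8.65, 8.58 and 8.67 with GW4064. All GW4064 arrays lay below all vehicle arrays there, with a difference of -0.28 (unadjusted p = 0.0493, adjusted p = 0.993). The effect in the liver knockout minus that in WT was -0.44 (unadjusted p = 0.0305, adjusted p = 0.618), and neither value passed the adjusted test. The second probe set of Aprt, tested among all probe sets, gave the same signs, with 0.30 in WT, -0.37 in the liver knockout and a difference of effects of -0.67 (adjusted p = 0.485, 0.916 and 0.605). Aprt in the WB KO stood at 8.90, 8.71 and 9.23 with vehicle and 9.23, 8.84 and 9.16 with GW4064, with overlapping arrays. With vehicle it differed from WT by -0.02 in the liver knockout and 0.01 in the WB KO.

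Adk, the salvage enzyme for adenosine, had 4 probe sets, and the brightest gave log2 levels of 13.25, 13.38 and 13.25 in WT livers with vehicle and 13.17, 13.24 and 13.36 with GW4064. Liver knockout arrays gave 13.43, 13.40 and 13.47 with vehicle and 13.45, 13.27 and 13.39 with GW4064. WB KO arrays gave 13.43, 13.42 and 13.46 with vehicle and 13.37, 13.38 and 13.27 with GW4064. With vehicle, all arrays of either knockout lay above all WT arrays on this probe set, by 0.14 in each (limma adjusted p = 0.440 and 0.417). A second probe set gave -0.16 in the liver knockout, with all arrays below WT, and 0.06 in the WB KO (adjusted p = 0.510 and 0.809). The remaining probe sets gave -0.07 and 0.13 in the liver knockout and 0.05 and 0.20 in the WB KO. So the probe sets disagreed on the sign in the liver knockout. With GW4064 the 4 probe sets gave -0.03, -0.06, 0.11 and 0.23 in WT livers and -0.06, 0.0031, 0.07 and 0.17 in the liver knockout. In the WB KO they gave -0.09, with all arrays below, -0.19, -0.06 and -0.10. None passed the adjusted test. Levels of different probe sets were not set against each other.

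**Figure D3:**
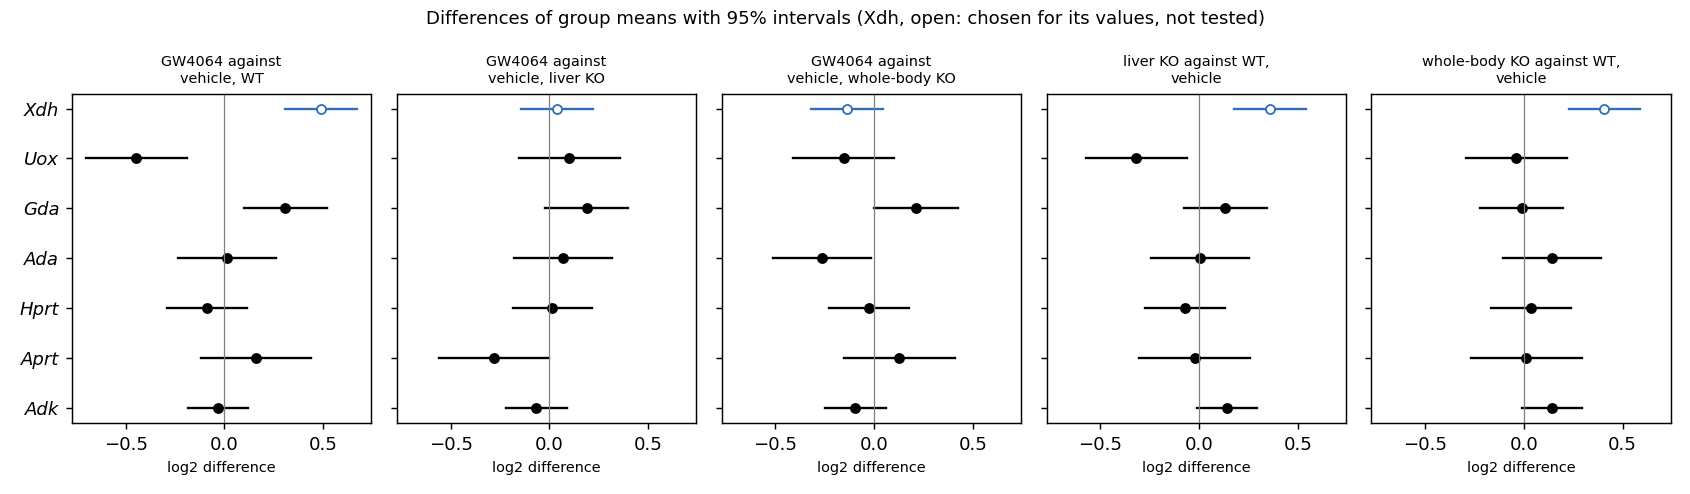
Differences of group means on the log2 scale (x axis) for Xdh and the 6 other measured members, in the 3 comparisons of GW4064 with vehicle and the 2 comparisons of a knockout with WT under vehicle. Lines are 95% intervals of the limma fit on 18 arrays, and Xdh (open circles, not tested) is at 0.49 with GW4064 in WT, where Uox is at -0.45 and Gda at 0.31.

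In the comparisons of the knockouts with WT under vehicle, 0 of the 6 genes passed the adjusted limma test. For the liver knockout, 0.879% of all genes passed, and at an unadjusted p under 0.05 1 of the 6 did (Uox), against 12.6%. For the WB KO, 1.14% of all genes passed, and 0 of the 6 had an unadjusted p under 0.05, against 13.3%. The methods' t-test gave 2 and 1 of the 6 unadjusted, beside 1467 and 1420 of 12394 genes, and 0 after adjustment in both, beside 1 and 5 genes. With the fold cut-off of 1.5 it gave 0 of the 6 in both. The medians of the 6 genes were -0.01 and 0.02, beside -0.01 over all genes in both. Xdh was 0.36 and 0.41 higher in these comparisons, but it was chosen for being higher in both knockouts.

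For the difference of the GW4064 effect from that in WT, 0 of the 6 passed for either knockout by limma. For the liver knockout, 0% of all genes passed, and 2 of the 6 had an unadjusted p under 0.05 (Uox and Aprt), against 7.46%. For the WB KO, 0% of all genes passed and 0 of the 6 had an unadjusted p under 0.05, against 8.21%. In the test of any difference among the 6 groups, which 6.08% of all genes passed, 0 of the 6 passed by limma, with adjusted p from 0.103 (Gda) to 0.850 (Hprt). At an unadjusted p under 0.05, 3 did (Uox, Gda and Aprt), against 22.1%. Without WT GW4064 replicate 3, 2 of the 6 passed this test, Uox (adjusted p = 0.0103) and Gda (adjusted p = 0.0403). With single arrays left out, 531 to 985 of all 12394 genes passed it.

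A wider list of 55 purine genes, from de novo synthesis to urate carriers and the molybdenum cofactor that Xdh needs, had 42 genes on the array. With GW4064, 0 of the 42 passed the adjusted limma test in each genotype. Below an unadjusted p of 0.05 by limma there were 5 in WT livers (11.9%, against 12.6% of all genes), 3 in the liver knockout (7.14%, against 5.02%) and 3 in the WB KO (7.14%, against 6.25%), shares near those of all genes. The medians over the list were -0.03, -0.00 and -0.05. With vehicle, 2 genes fell in the liver knockout and 0 rose, where 0.879% of all genes passed, and 1 fell in the WB KO and 0 rose, where 1.14% passed. At an unadjusted p under 0.05 there were 8 in the liver knockout (19.0%, against 12.6% of all genes) and 4 in the WB KO (9.52%, against 13.3%). The medians were -0.06 and -0.05, beside -0.01 over all genes in both. For the differences of the GW4064 effect, 0 of 42 passed for either knockout by limma, with 4 and 3 at an unadjusted p under 0.05 (9.52% and 7.14%, against 7.46% and 8.21% of all genes). In the test over all 6 groups, which 6.08% of all genes passed, 7 of 42 did (Ak4, Adssl1, Aox1, Mocos, Slc17a1, Suox and Aox3). At an unadjusted p under 0.05 by limma there were 15 (35.7%, against 22.1% of all genes). The list was not tested as a set.

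**Figure D4:**
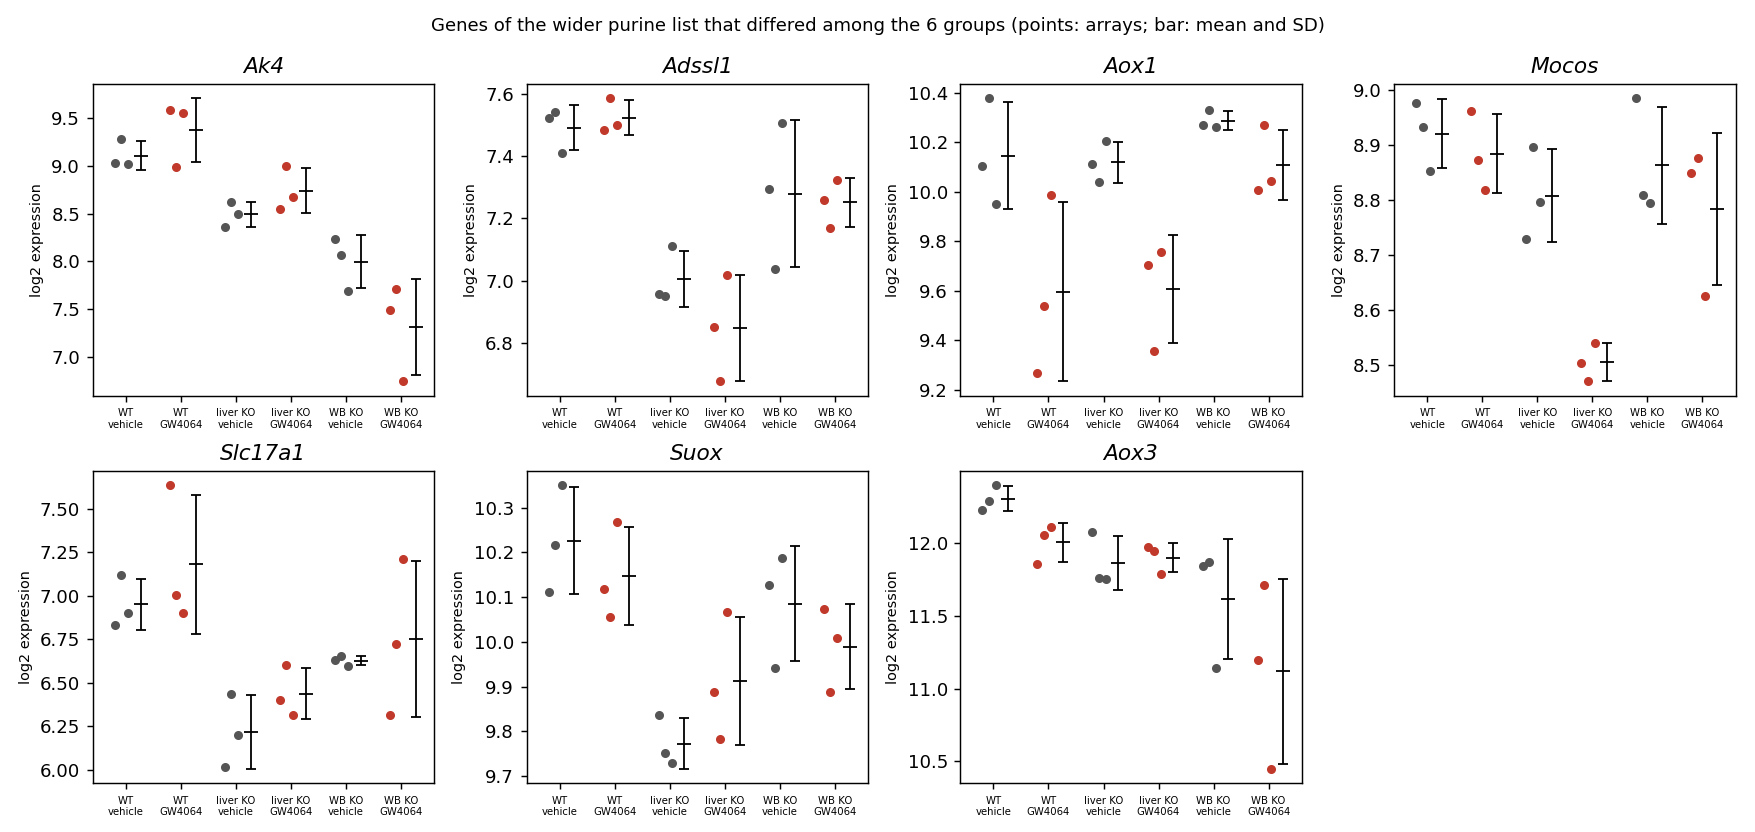
Log2 expression of the 7 genes of the wider purine list that passed the limma test over the 6 groups (points are arrays, bars are the mean and SD of 3 arrays; WB KO is the whole-body knockout, and axes differ between panels). Ak4 lies at or above 8.99 on every WT array and at or below 8.23 on every WB KO array.

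Ak4, an adenylate kinase of mitochondria, had the largest difference of the list. Its log2 levels were 9.03, 9.28 and 9.02 in WT with vehicle, 8.36, 8.63 and 8.49 in the liver knockout and 8.23, 8.07 and 7.69 in the WB KO. It fell by 1.11 in the WB KO, to 2.16-fold lower (limma adjusted p = 0.0158), and its difference in the liver knockout was -0.61 (adjusted p = 0.219, and 0.0388 with the compared groups alone). As the mean of its probe sets it was -0.73 in the WB KO, where it still passed, and -0.38 in the liver knockout. Without WT vehicle replicate 2 or WB KO vehicle replicate 3 the WB KO difference was -1.02 and -0.96 and did not pass (adjusted p = 0.0793 and 0.0973). With GW4064 the levels were 9.59, 8.99 and 9.56 in WT, 8.55, 9.001 and 8.68 in the liver knockout and 7.49, 7.71 and 6.74 in the WB KO, and the test over all groups gave an adjusted p of 0.000195.

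Xdh carries a molybdenum cofactor, and the list held 3 other enzymes that do, Suox, Aox1 and Aox3. No test was made of these enzymes as a group. Suox, sulfite oxidase, stood at 10.11, 10.22 and 10.35 in WT with vehicle and 9.84, 9.75 and 9.73 in the liver knockout, where it fell by 0.45 (limma adjusted p = 0.0281). Leaving out any single array of the 2 groups except WT vehicle replicate 1 ended this call, with adjusted p up to 0.121. The call was also lost in the limma fit of the compared groups alone (adjusted p = 0.0523) and by the methods' t-test (adjusted p = 0.254). Aox1 and Aox3 are aldehyde oxidases. Aox1 stood at 10.10, 10.38 and 9.95 in WT with vehicle and 9.27, 9.54 and 9.99 with GW4064, a difference of -0.55 (adjusted p = 0.166). Without WT GW4064 replicate 3, where 268 of all genes passed in this comparison, it was -0.74 and passed (adjusted p = 0.0094). It was -0.38 without WT GW4064 replicate 1 (adjusted p = 0.652). Liver knockout arrays gave 10.11, 10.04 and 10.21 with vehicle and 9.70, 9.35 and 9.76 with GW4064, a difference of -0.51 with all arrays below (adjusted p = 0.721). Aox3 stood at 12.23, 12.29 and 12.40 in WT with vehicle and 11.84, 11.87 and 11.14 in the WB KO, a difference of -0.69 (adjusted p = 0.196).

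Mocos, the sulfurase that activates the cofactor of Xdh and the aldehyde oxidases, stood at 8.73, 8.90 and 8.80 in the liver knockout with vehicle and 8.50, 8.47 and 8.54 with GW4064. The difference was -0.30, with all arrays below, and did not pass (adjusted p = 0.601). Gphn, which makes the cofactor, differed by 0.26 with GW4064 in WT livers (adjusted p = 0.394). Of Suox, Aox1, Aox3 and Mocos, none had the pattern of Xdh, with all WT vehicle arrays below all others. Aox3 had the reverse, with all WT vehicle arrays, at 12.23 or higher, above all others. The highest of those others was 12.11, in WT livers with GW4064. In the test over all 6 groups, Aox1, Mocos, Suox and Aox3 had adjusted p of 0.0212, 0.0321, 0.0424 and 0.0467, and leaving out 1 array in turn ended the call for 1, 7, 11 and 16 of the 18 arrays. The Aox3 call was also lost with the trended prior, with array weights, as the mean of probe sets and without the 2 arrays that stood apart, and the Suox call without those 2 arrays.

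Adssl1, which makes the precursor of AMP from IMP, fell by 0.49 in the liver knockout (limma adjusted p = 0.0390), from 7.52, 7.54 and 7.41 in WT to 6.96, 6.95 and 7.11, and the call was lost without any single array of these groups, with adjusted p up to 0.175. With GW4064 it stood at 6.85, 6.68 and 7.02 in the liver knockout, again below all WT arrays. Over all 6 groups Adssl1 passed with a limma adjusted p of 0.00445. Leaving out 1 array in turn ended that call for 0 of the 18 arrays, as did 0 of 9 other settings. Slc17a1, a phosphate and urate carrier, stood at 6.83, 7.12 and 6.90 in WT with vehicle and 6.01, 6.44 and 6.20 in the liver knockout, a difference of -0.73 (adjusted p = 0.0960), which passed with the compared groups alone (0.0354), with array weights (0.0232) and without the 2 arrays that stood apart (0.0057). Over all 6 groups it passed with an adjusted p of 0.0407, and leaving out any one of 14 of the 18 arrays ended that call. The other genes at the ends of the list did not pass in these comparisons with all arrays. With GW4064 in WT livers these were Prpsap2, a partner of phosphoribosyl pyrophosphate synthetase, at -0.30 with all arrays below, and Ak4 at 0.27. In the liver knockout with vehicle they were Ampd2, an AMP deaminase, at 0.48 and Dck, deoxycytidine kinase, at 0.33, or 0.078 as the mean of its probe sets. In the WB KO with vehicle they were Dck at 0.68 (adjusted p = 0.0680) and the nucleoside carrier Slc29a1 at 0.53 (adjusted p = 0.106), with all arrays above WT. Dck was 0.27 as the mean of its probe sets and passed without WT vehicle replicate 1 (adjusted p = 0.0199) and without the 2 arrays that stood apart (0.0302). Slc29a1 passed with the compared groups alone (0.0372) and without those 2 arrays (0.0319).

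Genes with provisional symbols, such as Gm numbers, Rik and LOC, were passed over at both ends of the ranking by likeness to Xdh. Among the rest, Agpat3, an acyltransferase of phospholipid synthesis, followed Xdh most closely in log2 level over the 18 arrays (Pearson r = 0.83). Next were Wfdc21 (0.82), Rpap2 (0.80), Ssr4, a subunit of the translocon-associated complex (0.79) and Rnf114 (0.79). The most opposed were Sstr2, a somatostatin receptor (-0.86), Pcyt2, an enzyme of phosphatidylethanolamine synthesis (-0.79) and Las1l (-0.78). Over the 6 group means, r was 0.91 for Agpat3, 0.98 for Rpap2 and -0.97 for Sstr2. The 3 WT vehicle arrays gave 8.95, 8.96 and 8.89 for Agpat3, and the other 15 lay above them. Of the purine members, Uox had r = -0.63 with Xdh, Gda 0.49, Hprt -0.28, Aprt 0.13, Ada 0.10 and Adk 0.05. These values describe 18 arrays that share their 6 groups.

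**Figure D5:**
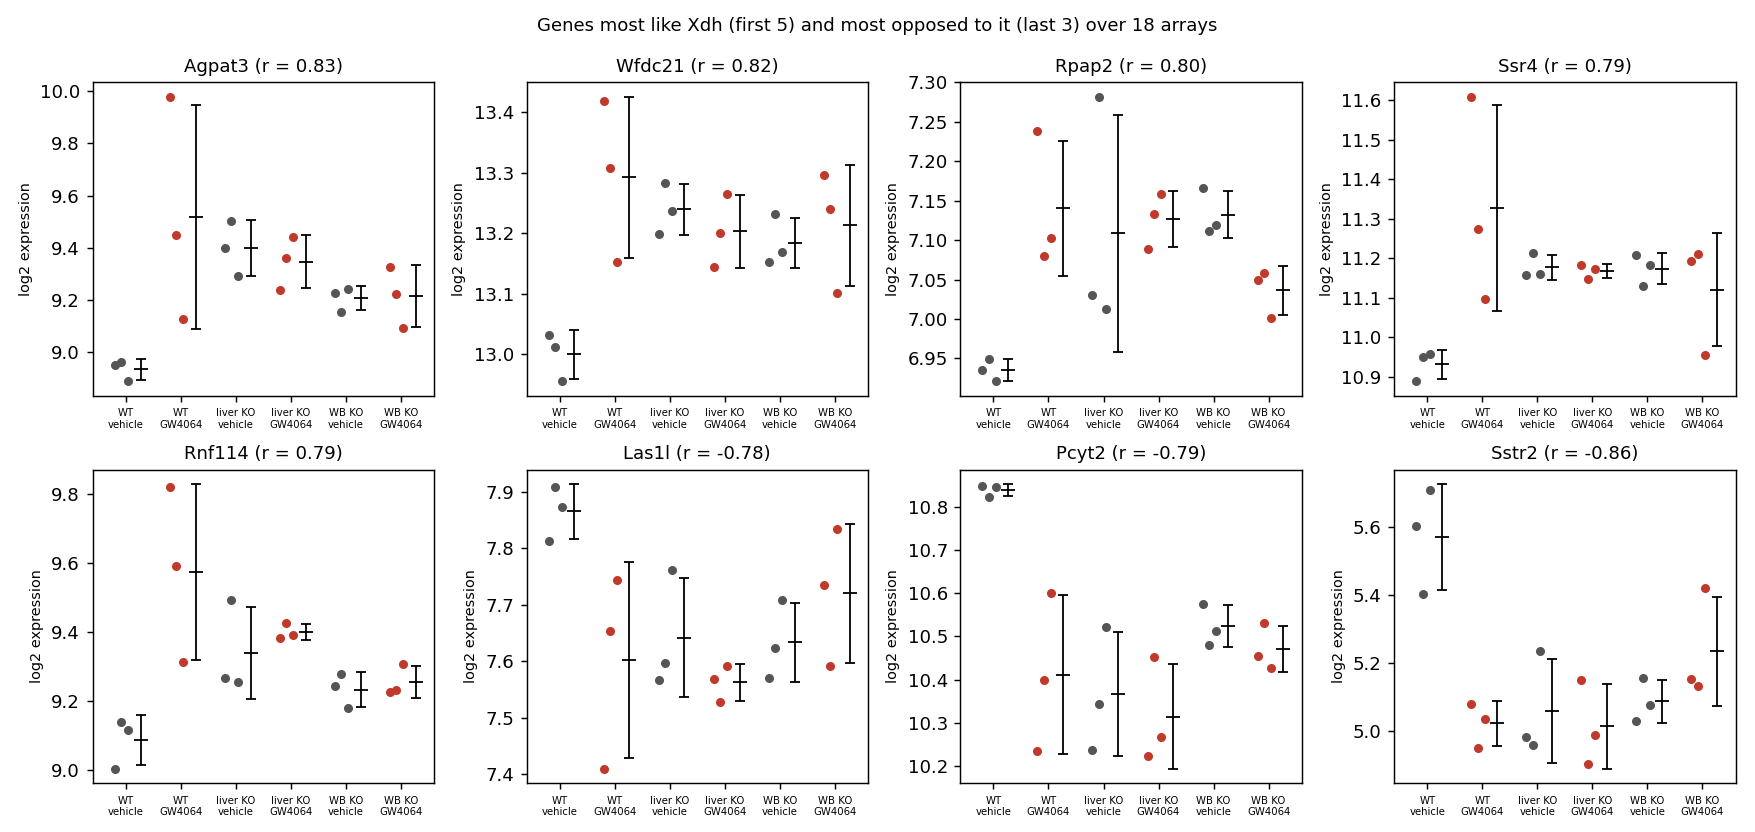
Log2 expression of the 5 genes most like Xdh and the 3 most opposed to it by Pearson r over 18 arrays. Genes with provisional symbols were passed over. Points are arrays, bars are the mean and SD of 3 arrays, and axes differ between panels. For Agpat3 the 3 WT vehicle arrays are the lowest of the 18, and r of the first 5 runs from 0.79 to 0.83.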

How the data were processed

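RNA from 18 mouse livers was measured on 1 array each. The authors normalized the arrays with RMA (version not given in the sources used here) and deposited log2 values for each probe set, on which everything here was computed. No detection calls come with the values, and the probe sets are not those of Mouse Gene 1.0 ST, the array that the methods name. The platform annotation gives 1 gene symbol to 20393 of 22690 probe sets, of which 20364 were found on GRCm38.p6 through an identifier. It gives several to 691, and 1606 are unnamed here. The brightest probe set on average represented each of 12394 genes, and no gene was filtered from the main tests. Genes with provisional symbols were passed over only in the ranking by likeness to Xdh.

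Differences were fitted with limma 3.58.1 in R 4.3.3 (a mean for each of 6 groups, 12 residual degrees of freedom, two-sided, Benjamini-Hochberg adjusted over all genes, threshold 0.05). The code of the fit was tested on simulated data. Plots used matplotlib 3.10.9 in Python 3.11.15. Members, lists and tests were chosen with earlier results of these data known. Genes were named if they were members, passed in the wider list, were its 2 highest or lowest with GW4064 in WT or in a knockout with vehicle, were most like Xdh, or were checks of genotype, treatment or cell type. Alternatives were a fit of the compared groups alone, quantile normalization or centring on the median, weights for arrays, a prior that was trended and robust, a filter on the 40% lowest genes, the mean of probe sets, every probe set, the replicate number as a block, the methods' t-test, each array left out, and, chosen after seeing the data, leaving out the 2 arrays that stood apart. The number of arrays limits the precision.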

Additional observations from a re-analysis of the deposited data

Results flagged for a closer look

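The effect of GW4064 on Xdh had opposite signs in WT and WB KO livers: 0.49 in WT, with all GW4064 arrays above all vehicle arrays, and -0.14 in the WB KO, with all below. Xdh was chosen for its values, so this difference was not tested. Uox showed opposite signs between the 2 knockouts, 0.10 in the liver knockout with all GW4064 arrays above vehicle and -0.15 in the WB KO with all below. The difference between these effects was not tested, and neither passed on its own.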

How the results depend on the processing

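Without WT GW4064 replicate 3, 1 member passed with GW4064 in WT livers (Uox), 1 in the difference of effects for the liver knockout (Uox) and 2 in the test over 6 groups. These counts ranged from 0 to 1, 0 to 1 and 0 to 2 when arrays were left out, and were 0 under every other setting run, with array weights, scaling and probe set rule included. In the other 5 comparisons 0 members passed under every setting run. For the wider list, the counts with arrays left out were 0 to 1 with GW4064 in WT and in the difference of effects for the liver knockout, 0 to 1 for the liver knockout against WT, 0 to 2 for the WB KO against WT, and 3 to 9 over 6 groups. The adjusted t-test gave 0 for both knockouts against WT. For the liver knockout against WT, the compared groups alone, array weights and leaving out the 2 arrays that stood apart each gave 3, against 2. For the WB KO against WT, the compared groups alone gave 2 and leaving out the 2 arrays that stood apart gave 4, against 1. Over all genes, the counts with arrays left out were 1 to 268 with GW4064 in WT (24 with all arrays), 37 to 89 in the liver knockout against WT (109), 56 to 101 in the WB KO against WT (141), 0 to 50 and 0 to 22 in the differences of effects for the liver knockout and WB KO (0 and 0), 0 to 2 and 0 to 4 with GW4064 in the 2 knockouts (0 and 0), and 531 to 985 over 6 groups (753). Other settings gave 0 to 32, 1 to 218 and 5 to 266 in the first 3 comparisons. The 268 with GW4064 in WT came without WT GW4064 replicate 3, and leaving out any other array of those groups gave 1 to 10. The causes were not tested.

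Small differences changed sign. With GW4064 in WT, Ada was -0.0043 with array weights and -0.052 to 0.060 with arrays left out, and Adk was 0.059 as the mean of probe sets, 0.011 without the 2 arrays that stood apart and -0.084 to 0.013 with arrays left out. With GW4064 in the liver knockout, Adk was 0.044 as the mean of probe sets, and with arrays left out Xdh was -0.0034 to 0.084, Ada -0.073 to 0.20 and Hprt -0.0030 to 0.042. In the WB KO, Hprt was 0.043 with array weights, 0.076 without the 2 arrays that stood apart and -0.10 to 0.076 with arrays left out. In the liver knockout against WT, Aprt was 0.0085 as the mean of probe sets and -0.057 to 0.015 with arrays left out, and Ada -0.12 to 0.15. In the WB KO against WT under quantile normalization, Gda was 0.0091, Hprt -0.0041 and Aprt -0.027, and with arrays left out Uox was -0.11 to 0.014, Gda -0.10 to 0.045, Hprt -0.031 to 0.081 and Aprt -0.13 to 0.13.

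The samples were not treated as paired by replicate number. Deviations of same-numbered vehicle and GW4064 arrays correlated at -0.03 to 0.34, with 4 of 9 above 0.1. Differently numbered arrays were not compared, so these values cannot decide whether the numbers pair the samples. With the replicate number as a block, 0 members passed in any comparison, the wider list gave 2 in the liver knockout, 1 in the WB KO and 7 over 6 groups, and 16 genes in place of 24 passed with GW4064 in WT.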
